A study of Homo sapiens with 8 samples.

Results

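The 10 genes described here belong to interleukin 6 (IL6) and JAK-STAT signalling or are linked to it. They include the receptor genes IL6R and IL6ST, the kinase gene JAK2 and the transcription factor gene STAT3. The others are the inhibitor genes SOCS1, SOCS2, SOCS3 and CISH and the kinase genes PIM1 and PIM2. All 10 were chosen by symbol from 63677 genes in the deposited count tables, and each was taken at the Ensembl identifier paired with its symbol. A second identifier named PIM2 held 0 counts in all 8 libraries and was not used. RNA-seq was performed on the multiple myeloma (MM) cell lines JJN3 and H929, in which 50 nM of THZ1, a covalent inhibitor of the transcriptional kinase CDK7, was set against its vehicle DMSO after 24 h. Each of the 4 groups (JJN3 DMSO, JJN3 THZ1, H929 DMSO and H929 THZ1) had 2 libraries. The study lists JJN3 as a line with a MAF translocation and H929 as a line with t(4;14), the translocation that drives FGFR3 and MMSET. Both lines are established cultures grown in medium with serum and without other cells, and no added IL6 is described.

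IL6 is a growth and survival factor for plasma cells and for many MM cells. It binds the receptor chain encoded by IL6R, and the complex then engages gp130, the signalling chain encoded by IL6ST, to which JAK kinases are attached. JAK kinases phosphorylate STAT3, which enters the nucleus and switches on genes that include SOCS3 and the PIM kinases, and SOCS proteins then bind the receptors or the kinases and close the loop.

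Libraries held from 17476443 to 19194371 counts, so that 3 counts, the floor used here, corresponded to between 0.156 and 0.172 CPM, the count scaled to the library total. The libraries labelled H929 DMSO went against the label of the libraries labelled H929 THZ1. Lambda genes made 99.99% and 98.0% of the light chain variable gene counts in the H929 DMSO libraries, against 0.203% and 0.194% in the H929 THZ1 libraries and between 0.244% and 0.369% in JJN3. FGFR3 had 45 and 285 counts in the H929 DMSO libraries and 14117 and 13411 in the H929 THZ1 libraries. The Pearson correlation of the library profiles over 14530 genes was between 0.737 and 0.778 for H929 DMSO against H929 THZ1, and between 0.749 and 0.766 for H929 DMSO against JJN3 DMSO, while within JJN3 it was between 0.962 and 0.970 across the treatment. All H929 results are therefore given as differences between the labels, in which THZ1 treatment and the source of the cells cannot be told apart, and no value without the doubted libraries can be had for that contrast because they are its whole DMSO group. The comparison within JJN3 was fitted without any H929 library.

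Among the marker lists, the 8 plasma cell genes summed to between 24244 and 40541 counts in the JJN3 libraries, to 33063 and 34644 in the H929 DMSO libraries and to 131982 and 129314 in the H929 THZ1 libraries. SLAMF7, a plasma cell surface gene, was under the floor of 3 counts in 1 H929 DMSO library, with 2 counts, against 174 in the other. In JJN3, 5 of the 8 plasma cell genes were lower with THZ1 and 3 were not called, where 21.3% of the 13984 genes tested were called lower. The 3 epithelial genes, EPCAM, KRT8 and CDH1, summed to 6610 and 5940 counts in the H929 DMSO libraries, to 5 and 11 in the H929 THZ1 libraries, and to between 1514 and 1830 in JJN3. The 3 T cell genes summed to at most 77 counts in the first 3 groups and to 646 and 656 in H929 THZ1, of which CD3E made 640 and 650. The B cell genes summed to between 3 and 77 counts, with CD22 at 0 throughout, the monocyte genes to between 1 and 20, and the stromal genes to between 3 and 82. The part of these differences in the results under the H929 labels was not tested.

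The promoters of the 10 genes were searched for STAT sites, which have the form TTCNNNGAA and read the same on both strands. RefSeq promoter windows on GRCh38.p14, running from 250 bases before to 50 bases after each start, were at hand for 9 of the 10 genes (13 windows). SOCS2 had no entry. CISH was the only one of the 9 with a match in these windows, and it held 4. Sites outside the windows, including those at other starts of a gene, were not searched. Of all 35116 windows, 2689 (7.66%) held at least 1 match and 7 (0.0199%) held 4 or more. The matches of CISH lie in 2 pairs on the minus strand, the first at chr3:50611996-50612015 (positions -241 to -222 from the start) and the second at chr3:50611878-50611903 (positions -129 to -104). They are shown because CISH was among the genes with the largest differences between the groups, and capitals mark the matches.

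CISH STAT pair 1: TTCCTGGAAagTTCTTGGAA

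CISH STAT pair 2: TTCTAGGAAgacgctgcTTCCGGGAA

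The members of each pair are separated by 2 bases in the first and by 8 bases in the second. A match is a description of the letters, and binding was not measured in these files.

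The levels that follow are CPM scaled by the trimmed mean of M values (TMM). Levels scaled by TMM or by total counts are relative to the other genes of a library. TMM also sets the middle of the log2 fold changes over all genes near 0. No added reference RNA or scaling by cell number is described, so a change in RNA per cell shared by most genes was not measured. A rise or a fall below is therefore relative, and the level per cell may have changed otherwise. Differences were tested with the quasi-likelihood test of edgeR, with p-values adjusted over all genes by the Benjamini-Hochberg method. A gene was called where the adjusted p was under 0.05 and the log2 fold change was beyond 0.5 in either direction. Nothing in the labels says that the 2 libraries of a group came from separate cultures, so the p-values measure only the spread between these libraries. Where groups are said below to overlap or not, the share of all genes that do so was not computed. Such statements only describe the libraries of that gene. In RNA from a bulk culture, fewer cells that express a gene and less RNA per cell cannot be told apart.

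The first comparison asks how the 10 genes responded to CDK7 inhibition in JJN3. STAT3, SOCS3, PIM1 and IL6ST rose and IL6R and PIM2 fell, while JAK2, SOCS1, SOCS2 and CISH were not called. Thus 4 of 10 were higher and 2 of 10 lower, where 20.6% of the 13984 genes tested were called higher and 21.3% lower (41.8% in either direction). The median log2 fold change of the 10 genes was -0.03, against 0.00 over all genes. All 10 passed the filter on low counts. Scaling by total counts in place of TMM moved the 10 values by a median of -0.10 and turned none of their directions, while the genes called over the whole table numbered 2353 higher and 3639 lower, in place of 2877 and 2972.

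**Figure D1:**
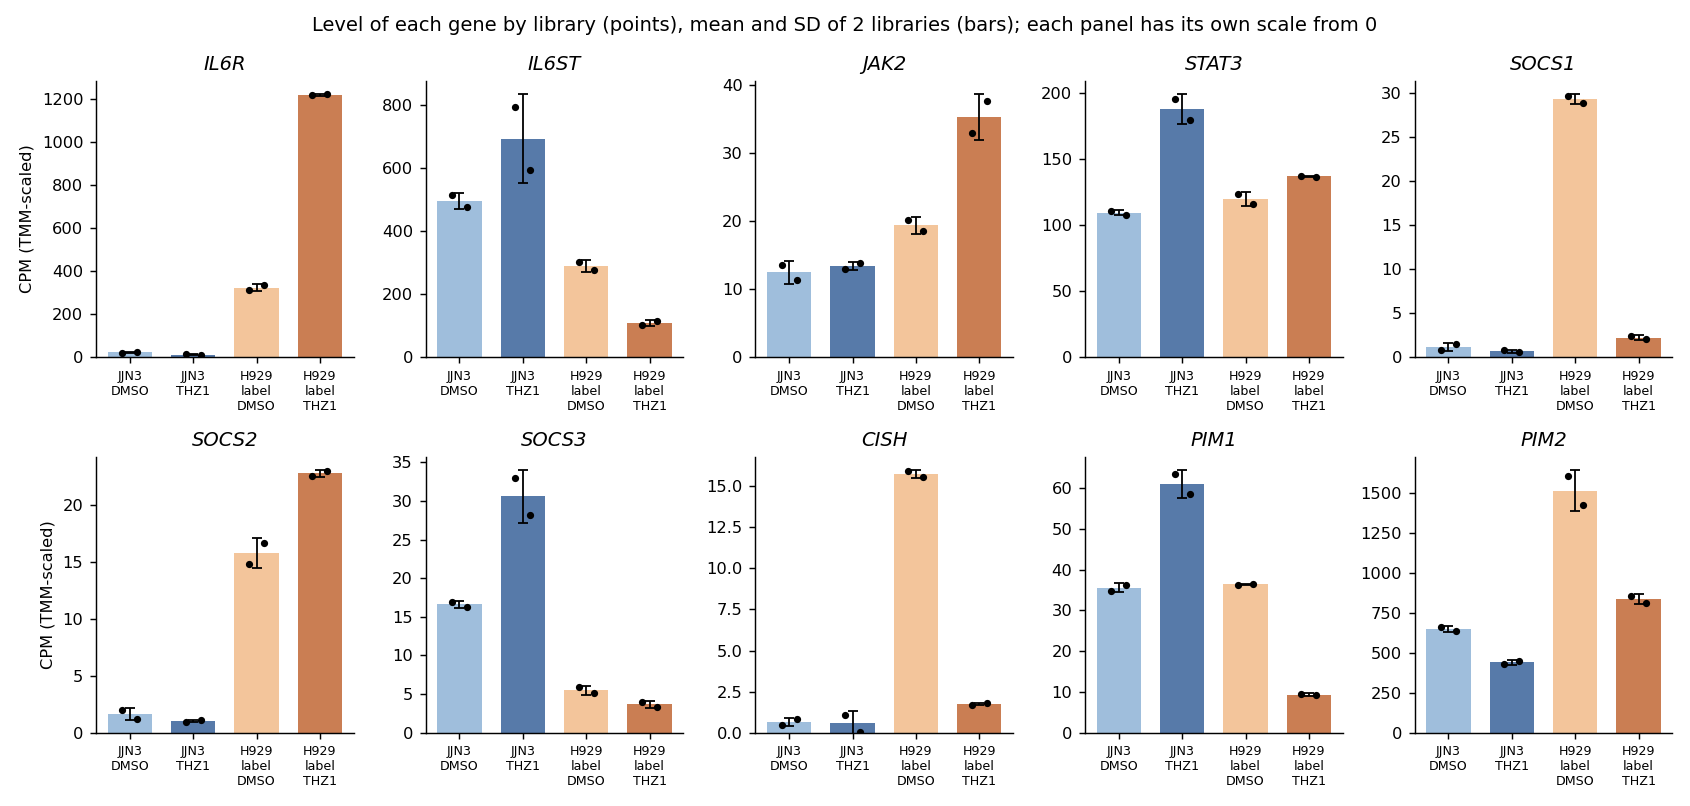
Level of each of the 10 genes in TMM-scaled CPM (vertical axis, a scale of its own from 0 in each panel) in the 4 groups; points are libraries, bars are means and whiskers the SD of 2 libraries. IL6R stood at or below 22.6 CPM in all JJN3 libraries and at or above 311 CPM in all libraries labelled H929, and SOCS1 and CISH were high only in the 2 libraries labelled H929 DMSO.

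At the receptor, the ligand-binding chain and the signalling chain moved in opposite directions. IL6R (chr1:154377669-154441926 on hg19, plus strand) stood at 20.7 and 22.6 CPM in the JJN3 DMSO libraries and at 11.97 and 7.999 CPM in the THZ1 libraries. Both THZ1 libraries lay below both DMSO libraries, and IL6R was the member that fell most among those called. Its log2 fold change was -1.11 ± 0.168 (SE, n = 2 against 2; edgeR adjusted p = 0.000206). IL6ST (chr5:55230923-55290850, minus strand) was at 514 and 476 CPM with DMSO and at 793 and 593 CPM with THZ1. The groups did not overlap, but the 2 THZ1 libraries were far apart. Its log2 fold change of 0.50 ± 0.127 (SE, n = 2 against 2; edgeR adjusted p = 0.0057) lay at the limit of 0.5. The call of IL6ST was lost in 8 of 13 alternatives. The log2 fold change was 0.28 without the first THZ1 library (edgeR adjusted p = 0.00815) and 0.43 without the second DMSO library (edgeR adjusted p = 0.0564). Reads at the processed pseudogene IL6STP1 numbered between 0 and 12.

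IL6R made only a small part of the receptor mRNA in JJN3. Per kilobase of exon, its share of the sum of IL6R and IL6ST was 6.49% and 7.56% in the DMSO libraries and 2.54% and 2.27% in the THZ1 libraries. The ligand itself was nearly absent, with 0 counts of IL6 in 7 of the 8 libraries and 2 counts in the second JJN3 THZ1 library.

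JAK2 and STAT3 differed from each other. JAK2 (chr9:4984390-5129948, plus strand), a kinase that binds gp130, was at 13.6 and 11.3 CPM with DMSO and at 12.95 and 13.83 CPM with THZ1. The groups overlapped, and the log2 fold change of 0.12 had a 95% interval from -0.18 to 0.43, which does not include a doubling or a halving. STAT3 (chr17:40465342-40540558, minus strand) was at 110 and 108 CPM with DMSO and at 196 and 179 CPM with THZ1. Both treated libraries were higher, by a log2 fold change of 0.80 ± 0.0809 (SE, n = 2 against 2; edgeR adjusted p = 1.27e-05).

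Of the 4 inhibitor genes, SOCS3 was the only one above a few CPM in JJN3 and the only one called. SOCS3 (chr17:76352859-76356158, minus strand), which encodes the inhibitor that binds gp130 and JAK kinases, was at 16.9 and 16.3 CPM with DMSO and at 33.1 and 28.2 CPM with THZ1. It rose by a log2 fold change of 0.90 ± 0.116 (SE, n = 2 against 2; edgeR adjusted p = 6.64e-05), with no overlap between the groups. SOCS1 (chr16:11348274-11350061, minus strand), an inhibitor that blocks JAK kinases directly, was at 0.776 and 1.49 CPM with DMSO and at 0.794 and 0.556 CPM with THZ1. SOCS2 (chr12:93963590-93977263, plus strand), best known as a brake on growth hormone signalling, was at 2.02 and 1.23 CPM with DMSO and at 0.977 and 1.11 CPM with THZ1.

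These low genes could not be resolved in JJN3. The log2 fold change of SOCS1 was -0.73 with a 95% interval from -1.72 to 0.25, and that of SOCS2 was -0.61 with an interval from -1.42 to 0.19. CISH (chr3:50643920-50649205 on hg19, minus strand), a STAT5 target that inhibits cytokine receptors, had 9 and 16 counts with DMSO and 18 counts and 1 count with THZ1. The 2 THZ1 libraries lay on either side of the DMSO libraries, and 1 of them was under the floor of 3 counts. Its log2 fold change was -0.19 with an interval from -1.873 to 1.499. Without the first THZ1 library the value was -3.37 (edgeR adjusted p = 0.0128) and without the second it was 0.78 (adjusted p = 0.217), so the direction depended on which THZ1 library was kept.

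The PIM kinases are constitutively active serine/threonine kinases that promote survival and translation, and PIM2 is the form best known in MM. In JJN3 they moved in opposite directions. PIM1 (chr6:37137928-37143204, plus strand) was at 34.8 and 36.4 CPM with DMSO and at 63.5 and 58.6 CPM with THZ1, and rose by a log2 fold change of 0.79 ± 0.0884 (SE, n = 2 against 2; edgeR adjusted p = 2.32e-05). PIM2 (chrX:48770459-48776301, minus strand) was at 662 and 636 CPM with DMSO and at 430 and 448 CPM with THZ1, a log2 fold change of -0.55 ± 0.0889 (SE, n = 2 against 2; edgeR adjusted p = 0.000317). Neither gene had overlapping groups. PIM2 remained by far the more abundant of the pair, with 95.4% and 95.1% of their summed level per kilobase in the DMSO libraries and 88.1% and 89.4% in the THZ1 libraries.

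The second comparison sets the libraries labelled H929 THZ1 against those labelled H929 DMSO. IL6R, JAK2 and SOCS2 were higher under the THZ1 label, and IL6ST, SOCS1, SOCS3, CISH, PIM1 and PIM2 were lower, while STAT3 was not called. That makes 3 of 10 higher and 6 of 10 lower, where 33.1% of the 14863 genes tested were called higher and 32.6% lower (65.7% in either direction). The median log2 fold change of the 10 genes was -0.71, against 0.01 over all genes.

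Under the H929 labels IL6R ranked next to PIM2 in level per kilobase. It stood at 311 and 335 CPM in the DMSO libraries and at 1217 and 1222 CPM in the THZ1 libraries, a log2 fold change of 1.92 ± 0.0598 (SE, n = 2 against 2; edgeR adjusted p = 8.91e-14). IL6ST went the other way, from 302 and 276 CPM to 102 and 115 CPM, with a log2 fold change of -1.41 ± 0.0664 (SE, n = 2 against 2; edgeR adjusted p = 1.25e-11). Neither pair of groups overlapped. Per kilobase, IL6R made 64.0% and 67.7% of the receptor pair in the libraries labelled DMSO and 95.4% and 94.8% in those labelled THZ1.

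The inhibitors SOCS1 and CISH showed the largest differences of the 10. SOCS1 was at 29.7 and 28.9 CPM under the DMSO label and at 2.42 and 2.01 CPM under the THZ1 label, a log2 fold change of -3.72 ± 0.141 (SE, n = 2 against 2; edgeR adjusted p = 8.78e-13). CISH was at 15.9 and 15.6 CPM under the DMSO label and at 1.68 and 1.79 CPM under the THZ1 label, a log2 fold change of -3.17 ± 0.167 (SE, n = 2 against 2; edgeR adjusted p = 5.04e-11). The THZ1 libraries of both genes still lay above all JJN3 libraries.

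SOCS2 and SOCS3 differed less. SOCS2 was at 14.8 and 16.7 CPM under the DMSO label and at 22.5 and 23.0 CPM under the THZ1 label, with a log2 fold change of 0.54 ± 0.101 (SE, n = 2 against 2; edgeR adjusted p = 0.000137) that was 0.44, and no longer called, without the first DMSO library. SOCS3 was at 5.86 and 5.09 CPM and at 3.99 and 3.38 CPM. The log2 fold change of SOCS3 was -0.57 ± 0.187 (SE, n = 2 against 2; edgeR adjusted p = 0.0112), with no overlap, but the call was lost in 4 of 13 alternatives, with an adjusted p of 0.149 in DESeq2, and over all alternatives the adjusted p was between 0.00857 and 0.149. Without the first DMSO library it was 0.0795, and without the second THZ1 library it was 0.0948.

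The kinases and STAT3 completed the contrast. JAK2 was at 20.2 and 18.5 CPM under the DMSO label and at 32.9 and 37.7 CPM under the THZ1 label, with a log2 fold change of 0.87 ± 0.0956 (SE, n = 2 against 2; edgeR adjusted p = 4.23e-07). PIM1 was at 36.2 and 36.5 CPM and at 9.56 and 9.13 CPM, a log2 fold change of -1.95 ± 0.0972 (SE, n = 2 against 2; edgeR adjusted p = 2.40e-11). PIM2 was at 1605 and 1423 CPM and at 857 and 812 CPM, a log2 fold change of -0.85 ± 0.067 (SE, n = 2 against 2; edgeR adjusted p = 7.10e-09). None of the 3 genes had overlapping groups. STAT3 was at 123 and 116 CPM and at 137 and 136 CPM, and its log2 fold change of 0.20 had a 95% interval from 0.08 to 0.32, which lies below the limit of 0.5 although the edgeR adjusted p was 0.00316.

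**Figure D2:**
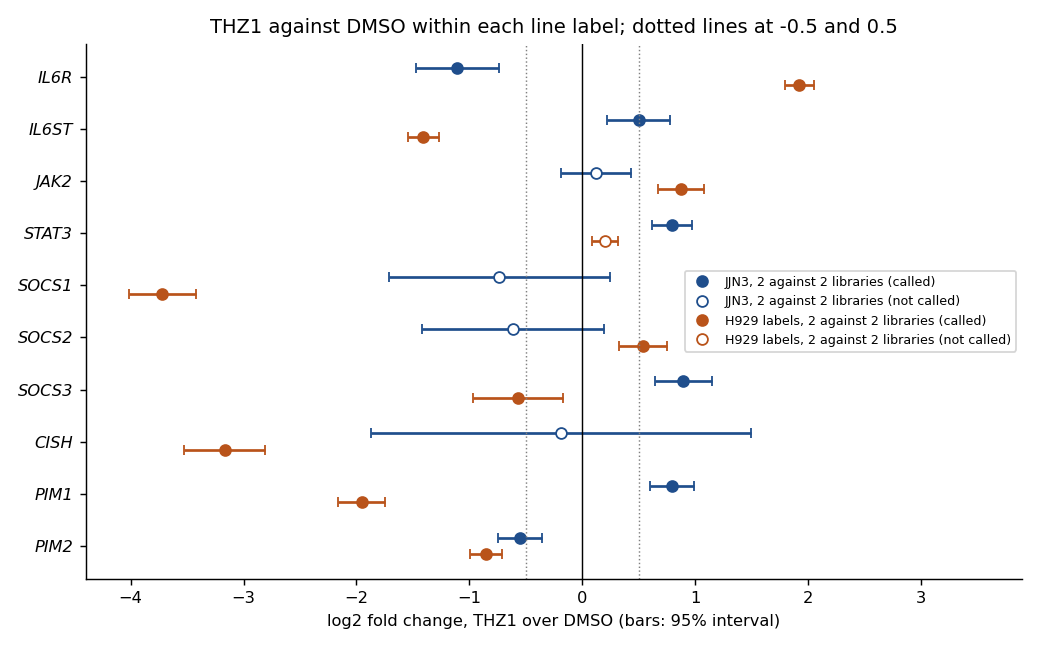
Log2 fold change of THZ1 over DMSO (horizontal axis) for each of the 10 genes (vertical axis) in JJN3 and between the H929 labels, each from 2 libraries against 2; bars are 95% intervals, filled points were called and open points were not, and dotted lines mark -0.5 and 0.5. PIM2 was called lower in both contrasts, at -0.55 and -0.85, whereas IL6R, IL6ST, SOCS3 and PIM1 were called on opposite sides of 0. SOCS2 also lay on opposite sides, at -0.61 in JJN3, where it was not called, and at 0.54 between the H929 labels.

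An interaction term fitted to the 8 libraries tested whether the 2 differences were unequal, as the value for the H929 labels minus that for JJN3. Of the 10 genes 3 were called higher and 6 lower, where 28.1% of the 16122 genes tested were called higher and 25.5% lower (53.7% in either direction). The difference was 3.04 ± 0.166 on the log2 scale (SE; edgeR adjusted p = 2.30e-10) for IL6R and -1.90 ± 0.157 (SE; edgeR adjusted p = 2.94e-08) for IL6ST. For SOCS3 it was -1.45 ± 0.212 (SE; edgeR adjusted p = 1.80e-05), and for PIM1 it was -2.74 ± 0.126 (SE; edgeR adjusted p = 3.55e-11). These 4 genes were called in opposite directions within the contrasts themselves. The call of IL6ST in JJN3 and that of SOCS3 between the H929 labels were each lost in some alternatives, as given above. PIM2 was the 1 gene not called, with a difference of -0.30 and a 95% interval from -0.53 to -0.06, short of the fold limit at an edgeR adjusted p of 0.0297. The value for CISH, -2.96, rested on the first JJN3 THZ1 library: without it the difference was 0.22 (edgeR adjusted p = 0.879), and in DESeq2 the adjusted p was 0.0847. For SOCS2 the difference was 1.16, and without the first JJN3 DMSO library it was 0.78 (edgeR adjusted p = 0.104).

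The libraries labelled H929 were also set beside those of JJN3 within each treatment label, which is a contrast of labels and, with DMSO, not shown to be one of the 2 named lines. With DMSO, 6 of 10 were higher and 2 of 10 lower in the libraries labelled H929 than in JJN3, where 30.8% of the 16122 genes tested were higher and 30.7% lower (61.5% in either direction). With THZ1, 6 of 10 were higher and 3 of 10 lower, where 31.6% were higher and 32.3% lower (63.9% in either direction). These contrasts share their libraries with the ones above and are a second view of the same values.

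IL6R differed most between the labels with THZ1. Its level under the H929 label was above that in JJN3 by 3.899 ± 0.115 on the log2 scale with DMSO (SE; edgeR adjusted p = 6.07e-14) and by 6.94 ± 0.133 with THZ1 (SE; edgeR adjusted p = 7.47e-16). IL6ST was lower under the H929 label, by a log2 fold change of -0.78 with DMSO and -2.68 with THZ1, and SOCS3 likewise, by -1.60 and -3.05. The groups of these 3 genes did not overlap in either contrast.

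SOCS1, SOCS2 and CISH were the members that JJN3 expressed least. SOCS1 was higher under the H929 label by a log2 fold change of 4.69 with DMSO and 1.71 with THZ1. SOCS2 was higher by 3.27 and 4.43, and CISH by 4.599 and 1.635, where the value of CISH with THZ1 had an adjusted p of 0.0117 in edgeR and 0.187 in DESeq2. Without the first JJN3 THZ1 library that value was 4.84 (edgeR adjusted p = 4.69e-06), without the second it was 0.66 (edgeR adjusted p = 0.128), and without the second H929 THZ1 library it was 1.604 (edgeR adjusted p = 0.0504). SOCS3 made between 83.5% and 95.4% of the summed level per kilobase of the 4 inhibitor genes in the JJN3 libraries, and between 7.87% and 22.1% in the libraries labelled H929. The dominant inhibitor transcript was therefore another one under the H929 label: SOCS1 with DMSO, at 16.4 CPM per kilobase, and SOCS2 with THZ1, at 3.51 CPM per kilobase.

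The remaining members ordered the groups less sharply. JAK2 was higher under the H929 label by 0.64 with DMSO (0.497, no longer called, without the second JJN3 DMSO library) and 1.40 with THZ1 on the log2 scale, and PIM2 by 1.22 and 0.93. PIM1 did not differ beyond the spread with DMSO, at 0.03 with a 95% interval from -0.14 to 0.21, and was lower under the H929 label with THZ1 by a log2 fold change of -2.71. STAT3 differed little between the libraries labelled H929 and JJN3, since the difference was 0.13 with DMSO (95% interval from -0.02 to 0.28) and -0.46 with THZ1, and neither passed the limit of 0.5, although without the second JJN3 THZ1 library the latter was -0.51.

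In the order of group means, libraries of neighbouring groups overlapped for JAK2, SOCS1 and CISH between JJN3 DMSO and JJN3 THZ1. They also overlapped for PIM1 between H929 DMSO and JJN3 DMSO. The share of such overlaps over all genes was not computed, so nothing particular to the 10 genes can be read from them. In all other neighbouring pairs of the 10 genes the libraries were separate, although for STAT3 the gap between H929 DMSO and JJN3 DMSO was small, with means of 119 ± 5.24 and 109 ± 1.76 CPM (SD, n = 2).

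**Figure D3:**
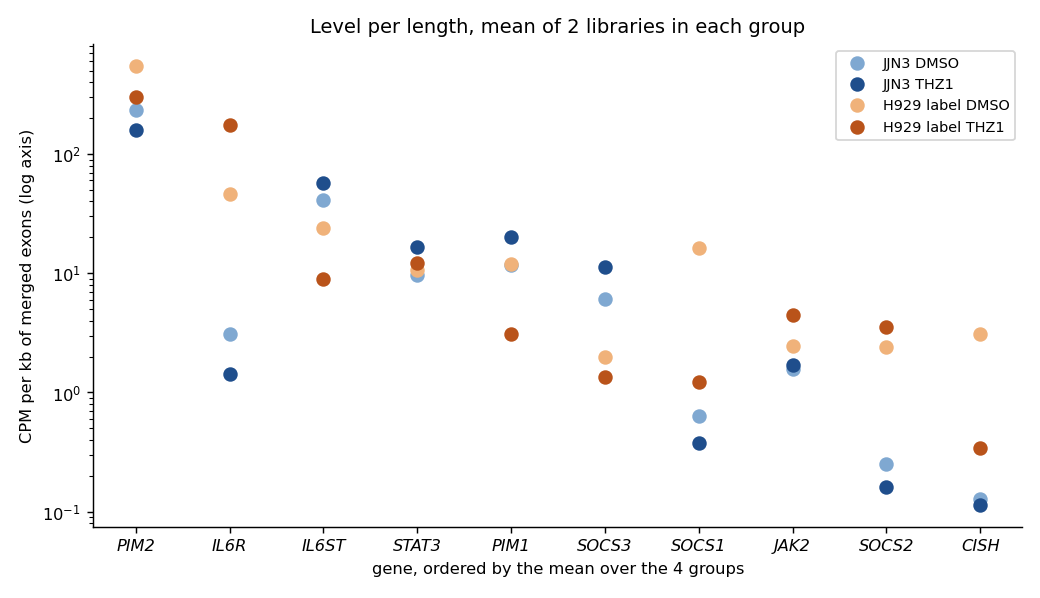
Mean level per length of 2 libraries in each group, in TMM-scaled CPM per kilobase of merged exons (vertical log axis), for the 10 genes in the order of their mean (horizontal axis). PIM2 had the highest level in all 4 groups, between 159 and 548 CPM per kilobase, and IL6R spanned 1.43 to 174 CPM per kilobase.

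Per kilobase of exon, PIM2 was the most abundant of the 10 genes in each of the 4 groups, at 235 ± 6.73 CPM per kilobase in JJN3 DMSO, 159 ± 4.64 in JJN3 THZ1, 548 ± 46.8 in H929 DMSO and 302 ± 11.4 in H929 THZ1 (SD, n = 2). IL6R ran from 1.43 ± 0.402 CPM per kilobase in JJN3 THZ1 to 174 ± 0.591 in H929 THZ1, a ratio of 122. The corresponding ratio of the highest to the lowest group mean was 43.4 for SOCS1, 21.8 for SOCS2, 8.31 for SOCS3, 6.53 for PIM1, 6.39 for IL6ST, 3.45 for PIM2, 2.84 for JAK2 and 1.72 for STAT3. No ratio is given for CISH, since its lowest group, JJN3 THZ1, holds a library with 1 count, under the floor of 3, and its place in this order is not resolved.

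Across the 8 libraries the genes whose log2 level followed PIM2 most closely among 8957 genes were FIBP (Pearson r = 0.997) and SLC25A38 (r = 0.997). For IL6ST the closest was PPIG (r = 0.997). These are descriptions over 8 libraries that fall into 4 groups, and the groups share their line and their treatment.

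The other genes of the pathway are taken first in JJN3. Of the 5 other STAT genes tested, 3 fell and none rose, with a median log2 fold change of -0.97, where 21.3% of all genes tested were called lower and 20.6% higher. The counts of the lists that follow in JJN3 stand beside the same shares, and lists this short say little against them. Of the 3 other JAK genes, JAK3 fell (-1.54) and JAK1 rose (1.23), while TYK2 was at -0.01.

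The other SOCS genes and negative regulators had no called falls. Of the 4 other SOCS genes 3 rose (median 0.97), among them SOCS6 (0.81), and of the 11 other inhibitors of JAK-STAT signalling 3 rose and 8 were not called (median 0.26), with the ubiquitin ligase gene CBL at 1.06. The third PIM gene, PIM3, rose by 0.56. Of the 17 other JAK-linked cytokine receptors tested 4 fell and 4 rose (median 0.07), with CSF2RB, the shared beta chain of the IL3, IL5 and GM-CSF receptors, at -1.24 and the interferon lambda receptor gene IFNLR1 at 1.46. None of the 3 other receptors that pair with gp130 was called (median 0.04). Of 9 ligands of the IL6 family only CNTF passed the filter, from 9 and 8 counts to 102 and 71 counts (3.53).

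Genes known as STAT3 targets went both ways in JJN3. Of 17 tested, 7 rose and 3 fell, where 20.6% of all genes rose and 21.3% fell, so the count that fell is near the share over all genes. The median was 0.49, against 0.00 over all genes. The AP-1 gene JUNB rose from 1586 and 1432 counts to 4308 and 3516 counts (log2 fold change 1.58 ± 0.127, SE; edgeR adjusted p = 2.98e-06), and the adhesion gene ICAM1 had a log2 fold change of -0.97. The list also holds genes that respond to many other factors. Of 11 genes for known substrates of PIM kinases 2 fell, 1 rose and 8 were not called (median -0.09), with the cell cycle phosphatase gene CDC25A at -0.88 and the CDK inhibitor gene CDKN1A at 1.29.

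**Figure D4:**
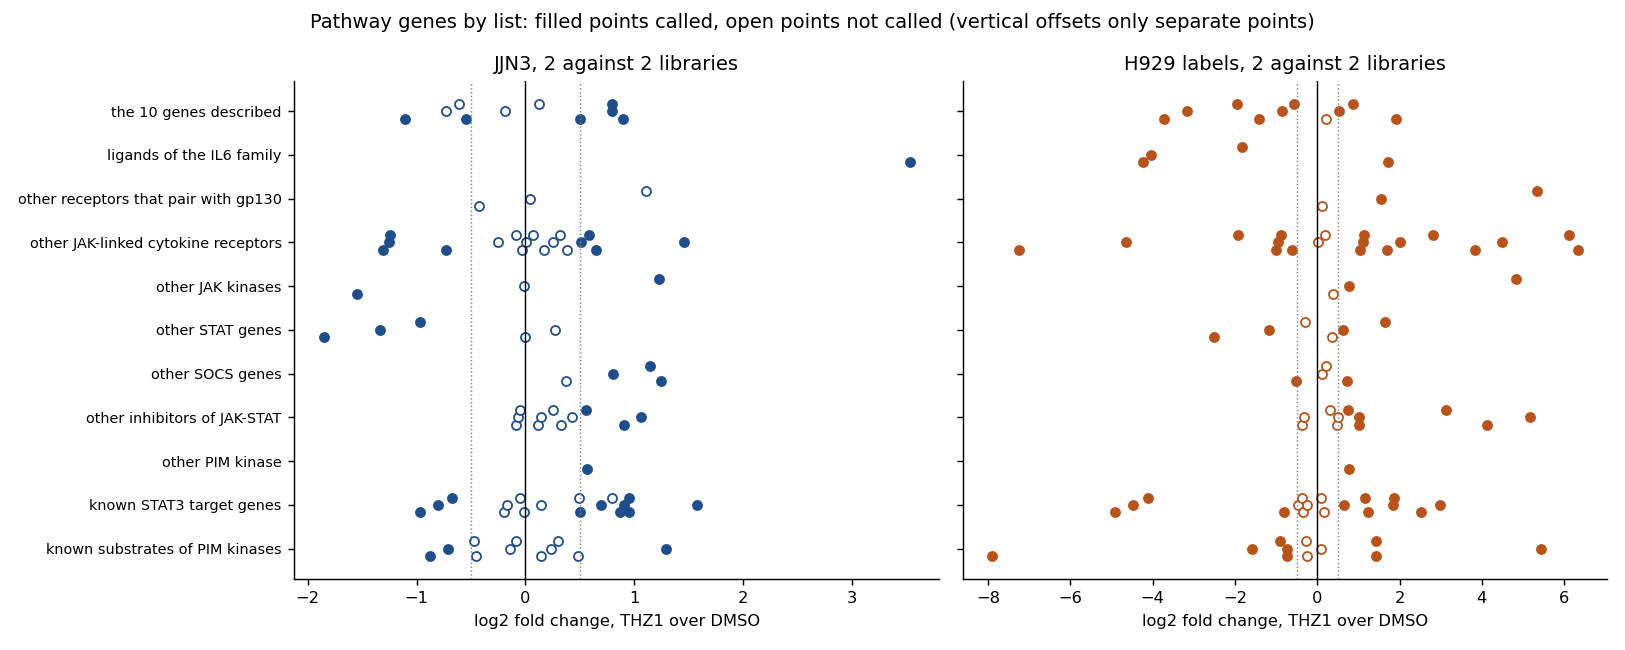
Log2 fold change of THZ1 over DMSO (horizontal axes, which differ between the panels) for the genes tested in each pathway list (rows) in JJN3 and between the H929 labels, each from 2 libraries against 2; filled points were called, open points were not, and vertical offsets only separate points. In JJN3 the called genes of the list of other STAT genes all lay below 0 and those of the list of other SOCS genes above 0, while STAT3, in the top row, was higher, and between the H929 labels the values ran from -7.90 to 6.34.

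Between the H929 labels the same lists spread much further. Over all genes, 33.1% were called higher and 32.6% lower, and each count of a list under these labels is to be read beside those shares. Of the 19 other cytokine receptors tested 10 were higher and 7 lower under the THZ1 label (median 1.04), the latter count near the share over all genes. Among the 10, IL12RB2 (1 and 1 counts) and GHR (0 and 2 counts) were under the floor of 3 in both libraries labelled DMSO. IL2RG, the common gamma chain, dropped from 7994 and 6592 counts in the libraries labelled DMSO to 40 and 59 in those labelled THZ1 (log2 fold change -7.24 ± 0.123, SE; edgeR adjusted p = 1.07e-16), against between 8554 and 10146 in JJN3. IFNLR1 was at 3.84. Of the 3 receptors that pair with gp130 tested 2 were higher (median 1.55), with LIFR at 5.34. Of the 4 ligands tested 3 were lower and 1 higher. OSM was at 1.71, and CLCF1 went from 23 and 18 counts to 1 count in each library, under the floor of 3 counts. No median is given for these ligands, since 2 of the 4 (IL11 and CLCF1) were under the floor in both libraries labelled THZ1.

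The signalling genes under the H929 labels were divided as well. Of the 3 other JAK genes 2 were higher (median 0.78), with JAK3 at 4.82, from 14 and 30 counts to 669 and 625. Of the 6 other STAT genes 2 were higher and 2 lower (median 0.03), with STAT2 at 1.65 and STAT6 at -1.18. SOCS7 was higher (0.72) and SOCS5 lower (-0.52) of the 4 other SOCS genes (median 0.16). Of the 11 other inhibitors 6 were higher and 5 not called (median 0.74), with the phosphatase gene PTPN6 at 4.13, and PIM3 was at 0.76. Among the 6 inhibitors, PTPRC had 0 counts and 1 count in the libraries labelled DMSO, under the floor of 3.

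Of the 17 STAT3 target genes tested between the H929 labels 7 were higher and 4 lower (median 0.08). PRDM1, the master regulator of plasma cells and also one of the markers, was at 2.99 and ICAM1 at -4.47. Of the 11 genes for PIM substrates 3 were higher and 5 lower (median -0.28). The chemokine receptor gene CXCR4 went from 3478 and 3076 counts to 12 and 16 counts (-7.90), against between 1933 and 2679 in JJN3, and CDKN1A was at 5.43.

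How the genes were counted limits a few of these values. Whether strand was used in counting is not given in the sources used here, and CISH shares 218 exon bases (4.31% of its exon length) with MAPKAPK3 on the opposite strand, which had between 553 and 1956 counts. SOCS2 shares 277 bases (4.28%) with SOCS2-AS1, which had between 0 and 61 counts. IL6ST shares 797 bases with a long noncoding RNA that had 0 counts in all libraries. Reads are not independent molecules, so the floor covers counting error only.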

How the data were processed

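Total RNA of 8 cell line libraries (4 groups of 2) was sequenced as single-end reads. Per the labels and the methods, reads were mapped by the authors with STAR 2.5.2a (hg19, unique alignments only), and the deposited values are raw featureCounts counts for each Ensembl gene. The authors also deposited DESeq2 1.12.4 tables for each line (mean normalized values, log2 fold changes, standard errors, statistics and p-values), of which only the gene symbols were used. Counts were tested with edgeR 4.0.16 in R 4.3.3 (filterByExpr, TMM, quasi-likelihood, Benjamini-Hochberg over all genes tested), each line within its own 4 libraries and the remaining contrasts over all 8. Exon lengths, gene positions and overlaps came from a GRCh37 annotation.

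The members and the gene lists were chosen with earlier results of these data known. Named beside the 10 members were, from each list and treatment contrast, the called gene with the smallest p in each direction, and for PIM2 and IL6ST the 2 best correlated genes. Of the genes so chosen, 2 are not reported here. Genes that set out the identity of the libraries, and single list members given to explain a count, were named after their values were seen. Alternatives were DESeq2 1.42.0, other scalings and filters, a replicate block, other fold limits, all 8 libraries in one fit, and leaving out each library. The scripts were tested on simulated data.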

Additional observations from a re-analysis of the deposited data

Results flagged for a closer look

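The THZ1 against DMSO difference was unequal between the H929 labels and JJN3 for 9 of the 10 genes by the interaction test, where 53.7% of all genes tested were called in either direction. The value between the H929 labels minus that in JJN3, on the log2 scale, was 3.04 for IL6R, 0.76 for JAK2 and 1.16 for SOCS2, whose differences were higher under the H929 labels. It was -1.90 for IL6ST, -0.59 for STAT3, -2.97 for SOCS1, -1.45 for SOCS3, -2.96 for CISH and -2.74 for PIM1. Apart from a stricter fold limit, the call of 3 of the 9 genes depended on a setting: STAT3 was at -0.44 and not called with total counts, SOCS2 was at 0.78 and not called without JJN3 DMSO replicate 1, and CISH was not called in DESeq2 and turned to 0.22 without JJN3 THZ1 replicate 1. The libraries labelled H929 DMSO go against the label of those labelled H929 THZ1, so a difference in response between the lines and a difference between the cells under the H929 labels cannot be told apart. With 2 libraries in a group, no single library was tested as standing apart within its group. The 2 H929 DMSO libraries did differ, with 3 and 597 kappa variable gene counts, 45 and 285 FGFR3 counts, and 2 and 174 SLAMF7 counts. Their correlations with the H929 THZ1 libraries were 0.7371 and 0.7379 for the first and 0.7775 and 0.7783 for the second. The cause of this difference was not tested.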

How the results depend on the processing

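Of the results for single genes 695 kept their direction and their side of the threshold under an alternative, 32 fell short of it, 5 passed it and 6 changed direction, and of the counts 289 stayed within 1.5 times the main count and 7 did not. All 7 came from a log2 fold limit of 1: in JJN3 the genes called lower numbered 1006 in place of 2972 and those called higher 1397 in place of 2877, with 1 and 0 of the 10 members, between the H929 labels 3146 in place of 4847 genes were lower and 1 member higher, and with DMSO between the line labels 1 member was lower. The direction changed in JJN3 for JAK2 (-0.019 without DMSO replicate 2) and CISH (0.27 without DMSO replicate 2 and 0.78 without THZ1 replicate 2), in the interaction for CISH (0.22 without JJN3 THZ1 replicate 1), and with DMSO between the line labels for PIM1 (-0.0015 with no filter and -0.0086 without JJN3 DMSO replicate 1), and none of these values passed the threshold; the cause was not tested. Over the libraries left out in turn, the log2 fold change ran from -0.019 to 0.25 for JAK2 and from -3.37 to 0.78 for CISH in JJN3, from -3.93 to 0.22 for CISH in the interaction, and from -0.0086 to 0.052 for PIM1 between the line labels with DMSO.

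Samples of 1 number did not deviate together (r = -0.02 in JJN3 and -0.04 in H929 over 8958 genes), so no shift shared by number was seen. A single correlation per line, from 2 libraries in a group, cannot exclude a pairing. It says less for H929, where the source of the cells is in doubt. With the replicate number as a block, 3 members in place of 4 were called higher in JJN3, where IL6ST was at 0.49. The other member counts with the block equalled the main ones.

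Leaving out 1 library at a time gave 3 to 4 members higher and 2 to 3 lower in JJN3, 2 to 3 and 5 to 6 between the H929 labels, 2 to 3 and 5 to 6 in the interaction, 5 to 6 and 2 to 2 between the line labels with DMSO, and 5 to 6 and 3 to 4 with THZ1. The lone library left in a group is then assumed to vary like the other groups. Depth limits CISH, SOCS1 and SOCS2 in JJN3, which had at most 39 counts in a library.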
